A study of Homo sapiens with 6 samples.

Results

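HIF1A and 9 further genes of the hypoxia response were followed in NB4 cells, an established human line from acute promyelocytic leukemia. The 10 genes were taken by symbol from the 23368 symbols of the deposited count tables: HIF1A, EGLN1, EGLN3, VEGFA, ADM, SLC2A1, PDK1, BNIP3, BNIP3L and ANKRD37. RNA-seq compared 3 libraries of cells that were not treated (n.t.) with 3 libraries of cells exposed for 24 h to maltonis at 10 µM. Maltonis, a hydroxypyrone, was added from a stock in distilled water. A vehicle is not mentioned for the n.t. cells, all 6 cultures were grown in the same serum-containing medium, and low oxygen is not named for either group. The study describes the replicates as biological, in a single cell line, so that the spread between them is that of separate cultures of the same cells.

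Cells sense oxygen through the hypoxia-inducible factors (HIF), each made of an oxygen-labile alpha subunit and the stable beta subunit ARNT. In the presence of oxygen, iron-dependent prolyl hydroxylases of the EGLN family modify the alpha subunit, and the VHL ubiquitin ligase then marks it for degradation. When hydroxylation stops, the alpha subunit persists, pairs with ARNT and binds hypoxia response elements near genes for glucose uptake, glycolysis, blood vessel growth and mitophagy. HIF-1 alpha is thus controlled mostly at the protein level, which RNA counts do not measure. In leukemic cells the same pathway is known for supporting glycolytic metabolism.

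The libraries held between 18492154 and 38205483 counts, so that 3 counts correspond to 0.0785 to 0.162 CPM, the count scaled to library size. The 2 libraries of replicate number 1 were the shallowest of their groups and carry another code in their deposited names than replicates 2 and 3, the meaning of which is not stated. Values are therefore also given within replicate 1 and within replicates 2 and 3. All 9 promyelocyte markers had counts, with a summed level of 17100 to 19700 CPM in n.t. cells and 12000 to 12400 CPM in maltonis-treated cells. The lower sum came from MPO (14610 against 7425 CPM), while the list moved both ways, with CTSG, LYZ and AZU1 called higher, MPO, CD33, SPI1 and CEBPA lower, and PRTN3 and SRGN not called. Of 12 markers of other lineages, 7 had any count, and their summed level was 65 to 68.9 CPM in n.t. and 31.9 to 33.4 CPM in maltonis-treated cells, with CD3D the largest contributor in n.t. cells. MS4A1, HBG1, HBE1 and CDH1 were among those at 0 in all 6 libraries. The part of these shifts in the results was not tested.

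The 10 genes did not move in a common direction. BNIP3L rose, while EGLN1, SLC2A1 and BNIP3 fell. HIF1A, VEGFA, ADM, PDK1 and ANKRD37 did not pass the test, and EGLN3 was too low to be tested. Genes were called at an FDR (Benjamini-Hochberg adjusted p over all 13209 genes tested) under 0.01 in edgeR's quasi-likelihood test. By this rule 31.9% of all genes tested were called higher and 32.1% lower, against 1 and 3 of the 9 members tested, so that the share of members called in either direction was not above that of all genes, at 64%. The median log2 fold change was -0.15 over these 9 members and 0.01 over all genes tested. None of the members passed the fold change of about 2.5 in either direction that the study also required. Together with the FDR threshold, 9.96% of all genes passed it as higher and 10.4% as lower. The study's further criterion on RPKM was not applied. The groups did not overlap for 7 members, of which ADM, PDK1 and ANKRD37 were not called, and for 76.6% of all genes tested. When libraries were scaled by total counts, the log2 fold changes of all genes shifted by 0.12 at the median. By that scaling 2 members were called higher and 3 lower. Calls over all genes tested moved as well, to 4902 higher and 3652 lower from 4213 and 4239.

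**Figure D1:**
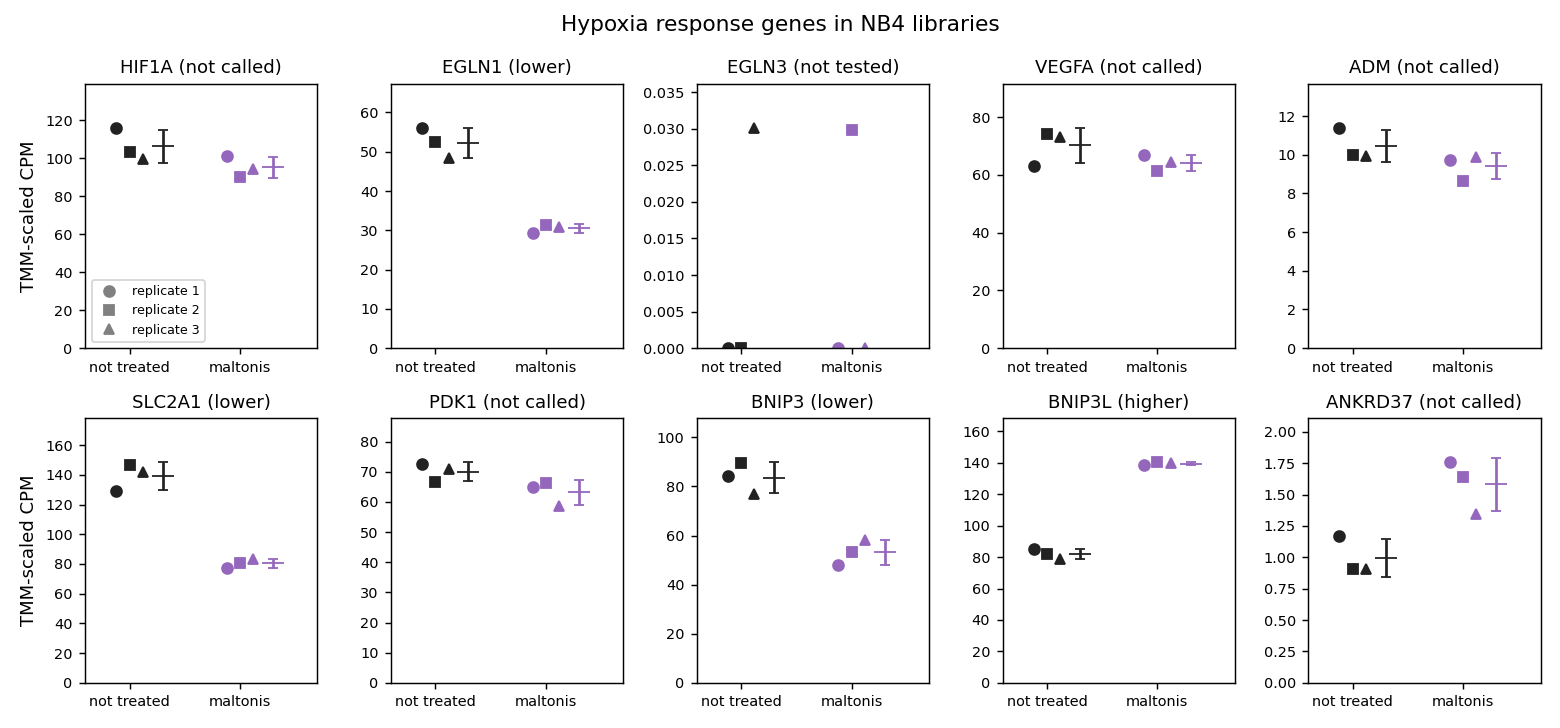
CPM, scaled by the trimmed mean of M-values (TMM), of each of the 10 genes (y axis, starting at 0 and set per gene) in the n.t. (black) and maltonis-treated (lilac) libraries. Marker shapes give the replicate number, and the horizontal dash with its bar is the mean ± SD of 3 libraries, left out for EGLN3, which had 1 count in each group. EGLN1, SLC2A1, BNIP3 and BNIP3L show a wide gap between groups, whereas HIF1A and VEGFA overlap.

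The promoters of hypoxia response genes are known for short response elements. Windows of 300 bases (250 before the transcript start and 50 from it onward) were therefore read for 8 members. They came from RefSeq, build GRCh38.p14. Both strands were searched for the core of the element, ACGTG or GCGTG. Where the letters CACGTG occur, the core lies on both strands in overlap and counts as 2 matches. The windows of the 3 genes that fell are shown, and that of ANKRD37, the only other member read that had 3 matches. Capitals mark the core, which reads CACGT or CACGC where it lies on the opposite strand.
EGLN1: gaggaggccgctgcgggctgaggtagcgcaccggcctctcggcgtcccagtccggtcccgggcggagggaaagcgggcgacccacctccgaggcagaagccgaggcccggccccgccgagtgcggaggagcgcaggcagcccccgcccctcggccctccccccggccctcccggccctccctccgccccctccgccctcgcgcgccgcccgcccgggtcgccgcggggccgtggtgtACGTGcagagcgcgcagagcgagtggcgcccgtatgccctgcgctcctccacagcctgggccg
SLC2A1: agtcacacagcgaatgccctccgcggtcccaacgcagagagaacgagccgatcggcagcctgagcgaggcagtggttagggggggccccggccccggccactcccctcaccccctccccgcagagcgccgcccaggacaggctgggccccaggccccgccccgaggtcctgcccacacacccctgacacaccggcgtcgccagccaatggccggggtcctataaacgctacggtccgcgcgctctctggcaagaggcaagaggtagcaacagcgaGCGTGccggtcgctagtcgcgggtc
BNIP3: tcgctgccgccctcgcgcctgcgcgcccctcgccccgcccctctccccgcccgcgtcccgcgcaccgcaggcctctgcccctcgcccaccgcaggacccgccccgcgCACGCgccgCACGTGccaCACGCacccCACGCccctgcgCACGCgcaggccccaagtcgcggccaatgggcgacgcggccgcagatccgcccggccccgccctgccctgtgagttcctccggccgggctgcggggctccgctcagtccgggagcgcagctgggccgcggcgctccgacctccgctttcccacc
ANKRD37: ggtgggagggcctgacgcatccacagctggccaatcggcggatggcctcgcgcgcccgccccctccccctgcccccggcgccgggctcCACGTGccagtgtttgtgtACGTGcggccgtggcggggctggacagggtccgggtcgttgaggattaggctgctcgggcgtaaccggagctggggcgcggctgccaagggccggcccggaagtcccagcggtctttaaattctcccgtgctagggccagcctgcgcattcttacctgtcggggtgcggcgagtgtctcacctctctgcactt
These windows lie at chr1:231422238-231422537 (EGLN1, minus strand), chr1:42958819-42959118 (SLC2A1, minus strand), chr10:131981874-131982173 (BNIP3, minus strand) and chr4:185396591-185396890 (ANKRD37, plus strand), and each reaches 50 bases into the transcript.

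The BNIP3 window held 6 matches between 143 and 104 bases before the start, and 1 of them on each strand came from a single CACGTG. Of all 35116 windows, 0.9% held 6 or more matches, and 7.3% held CACGTG. The ANKRD37 window held 3 matches, again including 1 CACGTG, against 10.1% of all windows with 3 or more. EGLN1 had 1 match, starting 13 bases before the start, and SLC2A1 had 1 match inside the transcribed part, 26 bases after the start. A single match was also found for ADM and for the upstream start of HIF1A, and the downstream start of PDK1 had 2. EGLN3 and the other starts of HIF1A and PDK1 had none. At least 1 match was thus present in 7 of the 10 windows read for members and in 48.4% of all windows. No window was read for VEGFA or for BNIP3L, the only member called higher, so their promoters were not searched. The 6 matches of BNIP3 and the 3 of ANKRD37 stood beside log2 fold changes of opposite sign, -0.65 and 0.69, of which only that of BNIP3 was called.

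**Figure D2:**
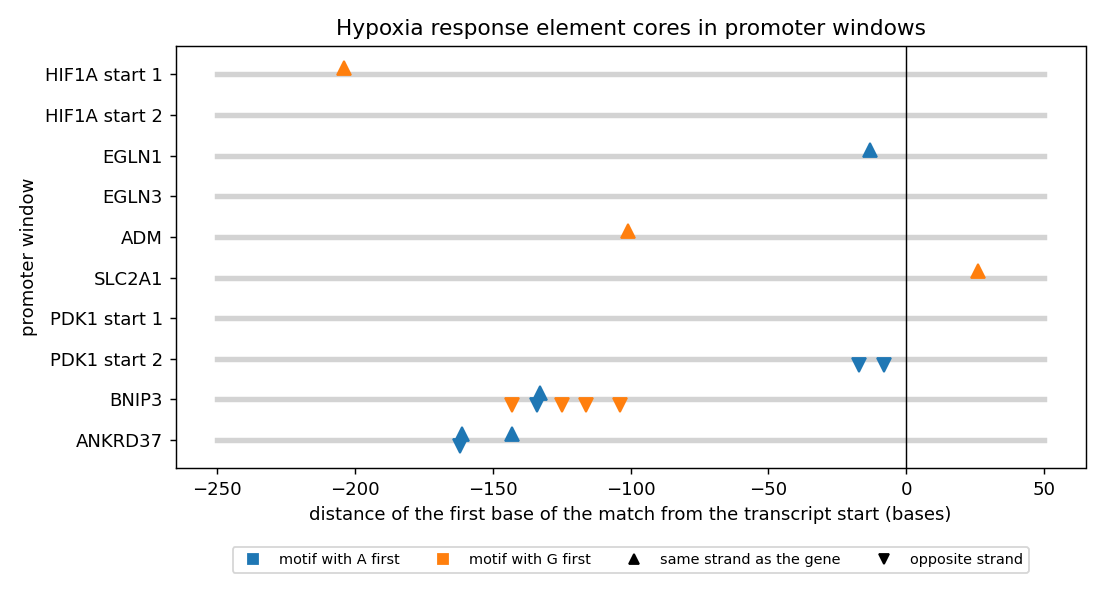
Matches to the response element core in the 10 promoter windows of 8 members, placed by distance in bases from the annotated transcript start (x axis, start at 0). Triangles pointing up lie on the strand of the gene and those pointing down on the opposite strand, with the 2 versions of the core in blue (A first) and orange (G first). BNIP3 holds 6 matches between -143 and -104, and 3 of the windows hold none.

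HIF1A encodes the oxygen-regulated alpha subunit. Its level was 116, 103 and 99.5 CPM in n.t. replicates 1 to 3 and 101, 90.2 and 94.6 CPM in maltonis-treated replicates 1 to 3. The treated libraries lay lower on average, but the highest of them exceeded the lowest n.t. library. The means were 106 ± 8.70 and 95.3 ± 5.45 CPM (SD, n = 3). The log2 fold change was -0.16 (SE 0.0765, 95% confidence interval -0.33 to 0.02, FDR = 0.0926, edgeR), and 85% of all genes tested had a larger change in size. An exact permutation test over the 20 regroupings of the 6 libraries gave p = 0.2 (two-sided), where the smallest value this design allows is 0.1. These regroupings took no account of replicate numbers. The treated library was the lower in each replicate number. With the code in the deposited names as a term, HIF1A was still not called (-0.16, FDR = 0.0153, edgeR). The difference was -0.20 within replicate 1 and -0.13 within replicates 2 and 3, and its interval leaves room for a fall of up to 0.33 on the log2 scale. With 1956 to 3739 counts per library, depth did not limit this measurement. The antisense transcript HIF1A-AS2, which lies over the end of the gene, had 2 to 9 counts per library and was not tested.

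The prolyl hydroxylases that mark HIF alpha subunits for VHL are themselves known HIF targets. EGLN1 encodes PHD2, the main oxygen sensor among them. It was measured at 56.0, 52.6 and 48.3 CPM in n.t. cells and at 29.2, 31.4 and 30.9 CPM in maltonis-treated cells. Every treated library lay below every n.t. library, and the mean fell from 52.3 ± 3.84 to 30.5 ± 1.15 CPM (SD, n = 3), that is to 58.4% of the n.t. level. The log2 fold change was -0.77 (SE 0.0763, 95% confidence interval -0.95 to -0.60, FDR = 2.18e-05, edgeR). The fall was -0.94 within replicate 1 and -0.69 within replicates 2 and 3. EGLN3, which encodes the strongly hypoxia-inducible PHD3, had 0, 0 and 1 count in n.t. and 0, 1 and 0 counts in maltonis-treated libraries. EGLN3 was below the floor of 3 counts in all 6 libraries, and no difference could be detected at this depth.

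VEGFA and ADM encode secreted peptides, the principal growth factor for blood vessels and the vasodilator adrenomedullin. VEGFA was at 63.1, 74.2 and 73.3 CPM in n.t. cells and at 67.0, 61.3 and 64.3 CPM in maltonis-treated cells. The n.t. library of replicate 1 lay below 2 of the treated libraries, so that the groups overlap. The means were 70.2 ± 6.16 and 64.2 ± 2.84 CPM (SD, n = 3), with a log2 fold change of -0.13 (SE 0.0784, 95% confidence interval -0.31 to 0.05, FDR = 0.158, edgeR). The sign differed between the codes, with 0.09 within replicate 1 and -0.23 within replicates 2 and 3. In a fit of replicates 2 and 3 alone, VEGFA was called lower (log2 fold change -0.24, FDR = 0.00335, edgeR). VEGFA was thus the member whose call turned on the libraries of replicate 1.

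ADM was a lower member of the set, at 11.4, 9.96 and 9.95 CPM in n.t. and 9.71, 8.65 and 9.87 CPM in maltonis-treated libraries. The groups did not overlap, but by a margin that was narrow against the spread within each group. The means were 10.4 ± 0.832 and 9.41 ± 0.662 CPM (SD, n = 3), and the log2 fold change was -0.15 (SE 0.102, 95% confidence interval -0.38 to 0.09, FDR = 0.224, edgeR). ADM rested on 188 to 361 counts per library. It lay at -0.23 within replicate 1 and -0.11 within replicates 2 and 3. The exact permutation p (two-sided) was 0.3 for VEGFA and 0.1 for ADM, the latter being the smallest that 3 against 3 libraries can give.

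SLC2A1 and PDK1 act at the entry and at the branch point of glucose use. SLC2A1 encodes the glucose transporter GLUT1. It was at 129, 147 and 142 CPM in n.t. cells and at 77.2, 80.4 and 83.6 CPM in maltonis-treated cells. No library overlapped, and the mean fell from 139 ± 9.12 to 80.4 ± 3.23 CPM (SD, n = 3), to 57.8% of the n.t. level. The log2 fold change was -0.79 (SE 0.0679, 95% confidence interval -0.95 to -0.64, FDR = 9.21e-06, edgeR), close to that of EGLN1. The value was -0.74 within replicate 1 and -0.81 within replicates 2 and 3. Even so, 38.7% of all genes tested had a larger change in size.

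PDK1 encodes a kinase that inhibits pyruvate dehydrogenase and so keeps pyruvate out of the mitochondria. It was at 72.5, 66.5 and 71.0 CPM in n.t. and at 64.9, 66.2 and 58.6 CPM in maltonis-treated cells. The groups were separated only by the gap between 66.5 and 66.2 CPM. The means were 70.0 ± 3.11 and 63.2 ± 4.09 CPM (SD, n = 3), with a log2 fold change of -0.15 (SE 0.0706, 95% confidence interval -0.31 to 0.02, FDR = 0.091, edgeR). The difference was alike within replicate 1, at -0.16, and within replicates 2 and 3, at -0.14. The intervals of SLC2A1 and PDK1 did not meet, though the difference between the 2 genes was not tested.

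BNIP3 and BNIP3L encode related proteins of the outer mitochondrial membrane that recruit autophagosomes to mitochondria, and they moved in opposite directions. BNIP3 was at 84.2, 89.3 and 76.8 CPM in n.t. and at 47.8, 53.5 and 58.2 CPM in maltonis-treated cells. All treated libraries lay below the n.t. ones, and the mean fell from 83.4 ± 6.31 to 53.2 ± 5.19 CPM (SD, n = 3), to 63.7% of the n.t. level. The log2 fold change was -0.65 (SE 0.0894, 95% confidence interval -0.85 to -0.44, FDR = 0.000179, edgeR), with -0.81 within replicate 1 and -0.57 within replicates 2 and 3. BNIP3L was at 85.0, 81.7 and 78.9 CPM in n.t. and at 139, 140 and 140 CPM in maltonis-treated cells. The treated libraries lay close to each other and far above the n.t. ones. The mean rose from 81.9 ± 3.03 to 139.5 ± 0.810 CPM (SD, n = 3), to 170% of the n.t. level, with a log2 fold change of 0.77 (SE 0.0554, 95% confidence interval 0.64 to 0.90, FDR = 3.15e-06, edgeR). The rise was 0.71 within replicate 1 and 0.80 within replicates 2 and 3. BNIP3 has processed copies elsewhere in the genome and annotated antisense transcripts, and whether counting used the strand is not given in the sources used here, so that its count may include or lose shared reads. For these sums over many cells, fewer cells that express a transcript and less RNA per cell cannot be told apart.

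ANKRD37, an ankyrin repeat protein of little-known function whose gene is a known HIF-1 target, was the least abundant member that could be tested. It had 22, 33 and 30 counts in n.t. and 34, 55 and 38 counts in maltonis-treated libraries, or 1.17, 0.911 and 0.905 CPM against 1.76, 1.64 and 1.35 CPM. The treated libraries lay above all n.t. libraries. The means were 0.996 ± 0.152 and 1.58 ± 0.210 CPM (SD, n = 3), with a log2 fold change of 0.69 (SE 0.197, 95% confidence interval 0.24 to 1.14, unadjusted p = 0.00728, FDR = 0.0113, edgeR). ANKRD37 was thus just outside the threshold, and it was inside in 5 of 16 tested alternatives. The neighboring gene UFSP2 encodes a protease and is annotated in overlap with ANKRD37. It was much more abundant, at 22.2 ± 1.88 CPM in n.t. and 31.9 ± 1.88 CPM in maltonis-treated cells (SD, n = 3). UFSP2 rose by a log2 fold change of 0.53 (FDR = 0.000551, edgeR). Without strand, reads of the 2 genes in the overlap cannot be told apart, and the part of UFSP2 in the value of ANKRD37 was not tested.

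Levels were set side by side between genes per kilobase of exon (RPKM, over the union of annotated exons). In n.t. cells SLC2A1 was the highest, at 29.5 ± 1.93 RPKM, followed by HIF1A at 20.6 ± 1.69, BNIP3L at 19 ± 0.704 and BNIP3 at 15.7 ± 1.19 RPKM (SD, n = 3). The ranges of HIF1A, 19.3 to 22.5 RPKM, and BNIP3L, 18.3 to 19.7 RPKM, overlapped, so that over this length these neighbors did not differ beyond their spread. A lower tier held EGLN1 at 7.2 ± 0.529, VEGFA at 4.86 ± 0.427, PDK1 at 4.7 ± 0.209 and ADM at 3.84 ± 0.306 RPKM, of which VEGFA and PDK1 overlapped. ANKRD37 was at 0.386 ± 0.0591 RPKM, and EGLN3 at 0.00137 ± 0.00237 RPKM rested on a single count. In maltonis-treated cells the order changed at the top, with BNIP3L at 32.4 ± 0.188 RPKM above HIF1A at 18.5 ± 1.06 and SLC2A1 at 17 ± 0.683 RPKM, the latter 2 overlapping. EGLN1, at 4.2 ± 0.158 RPKM, joined VEGFA at 4.45 ± 0.197 and PDK1 at 4.25 ± 0.275 RPKM in overlapping ranges, above ADM at 3.46 ± 0.244 RPKM. BNIP3 was at 9.98 ± 0.975 and ANKRD37 at 0.613 ± 0.0813 RPKM. The places of BNIP3 and ADM, and several of these overlaps, depended on the length used. Over the longest transcript, n.t. HIF1A (25.1 to 29.3 RPKM) and BNIP3L (21.9 to 23.5 RPKM) no longer overlapped. The same held for n.t. VEGFA (5.19 to 6.1 RPKM) and PDK1 (4.69 to 5.11 RPKM). In treated cells VEGFA, at 5.04 to 5.5 RPKM, then lay above EGLN1 (4.12 to 4.43 RPKM) and PDK1 (4.13 to 4.67 RPKM). Over its longest transcript BNIP3 lay at 27.2 RPKM in n.t. cells, beside HIF1A at 26.9 and above BNIP3L at 22.7 RPKM. ADM, at 5.53 RPKM in n.t. and 4.98 RPKM in maltonis-treated cells, then lay above PDK1 at 4.93 and 4.46 RPKM, and in treated cells also above EGLN1 at 4.3 RPKM. Both lengths were long for VEGFA (14431 and 12167 bases) and for PDK1 (14883 and 14193 bases). The annotation of counting is not given, and shorter counted exons would place these 2 genes higher. Their place in the lower tier is therefore uncertain.

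The coefficient of variation between n.t. libraries was 3.71% for BNIP3L and 4.44% for PDK1, lay between 6.55% and 8.77% for SLC2A1, EGLN1, BNIP3, ADM, HIF1A and VEGFA, and reached 15.3% for ANKRD37. In maltonis-treated libraries it ran from 0.581% for BNIP3L to 13.3% for ANKRD37 over the same 9 members, EGLN3 being left out for its low counts. Genes with a pattern like that of HIF1A were sought over the 6 libraries among 8259 abundant genes. POP7, a subunit of RNase P, came closest with Pearson's r = 0.994 on log2 CPM, followed by ZNF480 (r = 0.988) and BAD (r = 0.987), none of which was called either. For VEGFA these were LRRC37BP1 (r = 0.991), ACTN4 (r = 0.986) and MAPK8 (r = 0.98), again without a call. The points share libraries and treatment groups, so these values are a description.

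Among 16 further genes of the HIF machinery, 14 were tested, of which 3 were called higher, 3 lower and 8 not called. These are 21.4% in each direction, below the 31.9% and 32.1% of all genes tested. EPAS1, which encodes the sister alpha subunit HIF-2 alpha, was close to the floor in n.t. replicates 1 to 3, with 3, 12 and 4 counts, against 34, 39 and 28 counts after maltonis. All treated libraries were higher, and the log2 fold change was 2.53 (SE 0.396, 95% confidence interval 1.65 to 3.46, FDR = 0.000372, edgeR), with 3.18 when n.t. replicate 2 was left out. Even so its level of 1.30 ± 0.400 CPM in treated cells was small, against 0.204 ± 0.112 CPM in n.t. cells (SD, n = 3). The partner ARNT rose from 46.2 ± 0.405 to 72.1 ± 3.92 CPM (log2 fold change 0.64, FDR = 2.34e-05, edgeR). HIF3A and ARNT2 had at most 4 counts in any library and were not tested.

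Within the VHL ubiquitin ligase, VHL itself rose by 0.37 on the log2 scale (FDR = 0.000193), whereas its partners RBX1 (-0.80, FDR = 1.63e-05) and TCEB2, now named elongin B (-1.53, FDR = 7.33e-07), fell (edgeR). Elongin C (TCEB1) was at -0.31 (FDR = 0.051) and the scaffold CUL2 at 0.05 (FDR = 0.549), neither of them called. TCEB1 was called lower with the name code as a term (-0.32, FDR = 0.00203) and in replicates 2 and 3 alone (-0.28, FDR = 0.00924, edgeR). Of the other hydroxylases, EGLN2 was at 0.40 (FDR = 0.123), HIF1AN, which blocks coactivator binding, at -0.14 (FDR = 0.102), and P4HTM at -1.02 (FDR = 0.029), all without a call. EGLN2 was higher in the treated library of each replicate number, and it was called higher with the name code as a term (0.39, FDR = 0.00346, edgeR). P4HTM rested on 4 to 21 counts per library and was called lower when maltonis replicate 2 was left out (-1.67, FDR = 0.00471, edgeR). The overlapping readthrough gene RAB4B-EGLN2 had 0 to 11 counts per library. CITED2, which competes with HIF for its coactivators, fell by 0.82 on the log2 scale (FDR = 0.000118), while CITED4 (-0.30, FDR = 0.155) and the coactivators EP300 (0.14, FDR = 0.473) and CREBBP (0.08, FDR = 0.655) were not called. For EP300 and CREBBP the difference was 0.54 and 0.46 within replicate 1, and -0.02 and -0.07 within replicates 2 and 3.

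**Figure D3:**
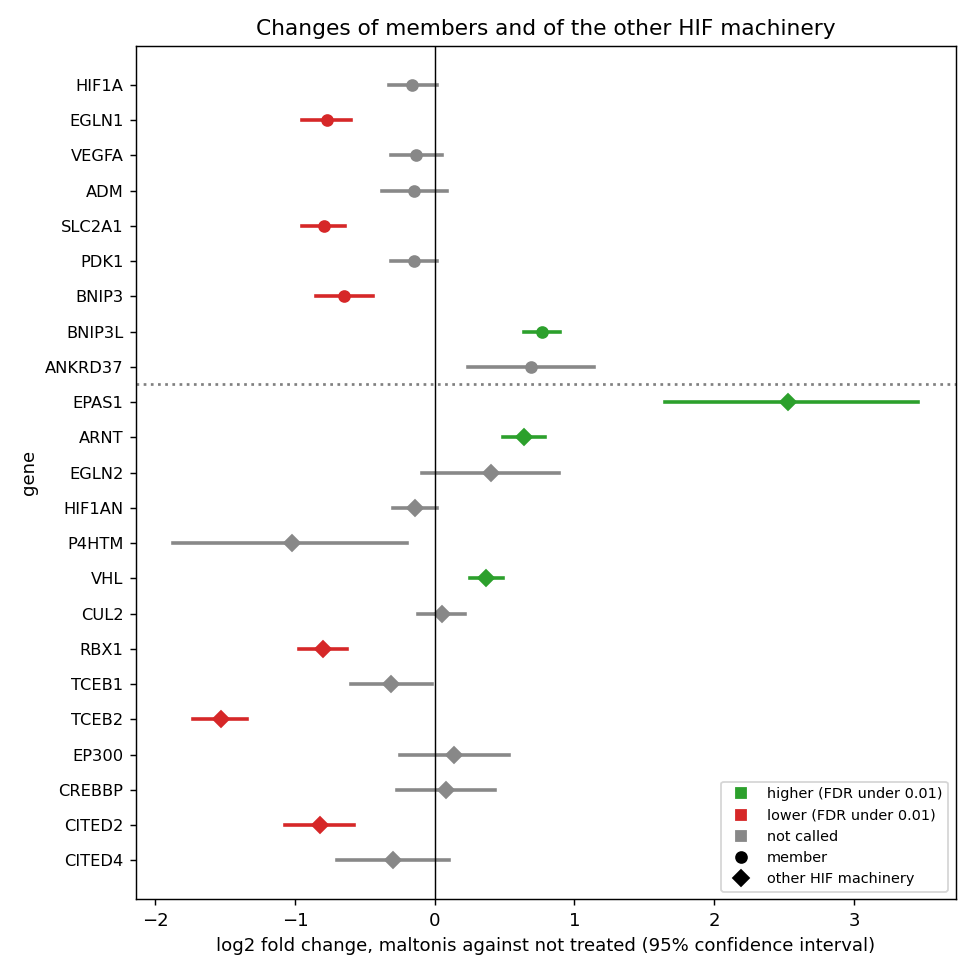
Log2 fold changes of maltonis-treated against n.t. cells (x axis) with their 95% confidence intervals (lines) for the 9 members tested (circles, above the dotted line) and 14 further genes of the HIF machinery (diamonds). Genes called at an FDR under 0.01 are green (higher) or red (lower) and the others gray, with members between -0.79 and 0.77 and EPAS1 and TCEB2 farther out.

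To set the members beside other genes of the pathway, 78 further HIF targets were listed by role, of which 67 were tested. HMOX1 and TFRC were left out of the list because their changes in these data were already known. They were called higher in 14 cases (20.9%, against 31.9% of all genes tested) and lower in 35 (52.2%, against 32.1%), with a median log2 fold change of -0.38, which setting LEP to the lower bound of its rise leaves as it is. SLC2A1 and PDK1 belong with the largest role, glucose uptake and glycolysis, in which 15 of 23 tested targets fell, 2 rose and the median was -0.48. The SLC2A1 value of -0.79 lay below that median and the PDK1 value of -0.15 above it. The largest falls there were of the adenylate kinase AK4 (-2.40, FDR = 6.15e-07) and the hexokinase HK1 (-1.83, FDR = 0.000221), and the rises were of the glycogen synthase GYS1 (0.98, FDR = 2.08e-05) and the glycolytic regulator PFKFB3 (0.56, FDR = 0.000464, edgeR). All 3 tested targets of pH and ion control fell, with the anion exchanger SLC4A2 at -2.60 (FDR = 1.63e-07) and the carbonic anhydrase CA12 at -2.93 (FDR = 0.00465, edgeR). CA12 had 0 to 29 counts per library, and it lost its call without n.t. replicate 2 (-2.77, FDR = 0.0196), maltonis replicate 2 (-2.21, FDR = 0.0156) or maltonis replicate 3 (-2.56, FDR = 0.0242), and stood at -5.11 without maltonis replicate 1. CA9, a widely used hypoxia marker, had 0 to 3 counts per library and was not tested.

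VEGFA and ADM belong with secreted factors and receptors, of which 3 of 8 tested rose (37.5%, against 31.9% of all genes) and 5 fell (62.5%, against 32.1%), while VEGFA and ADM themselves were not called. The chemokine receptor CXCR4 rose from 109 ± 5.41 to 242 ± 14.9 CPM (SD, n = 3, log2 fold change 1.15, FDR = 9.61e-07, edgeR). The adipokine gene LEP had 0 counts in every n.t. library and 10, 12 and 11 counts in the treated libraries, and was at least 12-fold higher against a floor of 3 counts over the group. The placental growth factor PGF rose by 1.30 (FDR = 0.0018), or by 1.10 without a call when n.t. replicate 2 was left out (FDR = 0.0111). The stanniocalcin STC2 (-3.05, FDR = 5.68e-06) and the VEGF receptor FLT1 (-1.94, FDR = 3.36e-07) fell (edgeR). EPO, the classical HIF target, had 0 to 6 counts per library and was not tested, and MIF and PDGFB were listed at 0 in all 6 libraries. The annotation and strand setting of counting are not given, so a listed 0 need not mean an absent transcript.

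BNIP3 and BNIP3L stand closest to the targets of cell death and growth, of which 4 of 10 rose and 3 fell, shares of 40% and 30% that are near the 31.9% and 32.1% of all genes tested. DDIT4, an inhibitor of mTOR signaling, rose from 45.8 ± 1.82 to 139 ± 5.96 CPM (SD, n = 3, log2 fold change 1.60, FDR = 1.35e-07, edgeR), and the cyclin G2 gene CCNG2 rose by 1.79 (FDR = 4.06e-06). The transcription factor FOXO3 (-1.29, FDR = 8.37e-07) and NDRG1 (-1.20, FDR = 1.58e-06), a stress-responsive growth regulator, fell (edgeR). Among mitochondrial targets, 1 of 4 rose and none fell. This was the iron-sulfur scaffold ISCU (0.32, FDR = 0.0029), whose call was lost at 0.28 to 0.29 without n.t. replicate 2 or 3 or maltonis replicate 1 or 3 (FDR = 0.0102 to 0.0183, edgeR).

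Of the collagen and matrix enzymes, 1 of 5 rose, the collagen prolyl hydroxylase P4HA1 (0.38, FDR = 0.00028), and 2 fell, the oxidase ERO1L (-0.71, FDR = 1.14e-05) and the lysyl oxidase LOX (-1.19, FDR = 0.00716, edgeR). LOX lost its call whichever library was left out, at -1.38 to -1.01 (FDR = 0.0144 to 0.026). Of all genes tested, 31.9% were called higher and 32.1% lower, beside 20% and 40% of these enzymes. Of the transcription and chromatin regulators, 3 of 14 rose (21.4%) and 7 fell (50%), led by JMJD6 (0.61, FDR = 6.42e-05) and BHLHE40 (0.52, FDR = 0.00853) on 1 side and by ZNF395 (-1.95, FDR = 2.88e-07) and MXI1 (-1.95, FDR = 1.3e-07), a MYC antagonist, on the other (edgeR). BHLHE40 also lost its call whichever library was left out, at 0.38 to 0.59 (FDR = 0.0101 to 0.0504). Past a fold change of about 2.5 lay 4 of the 67 tested targets as higher and 15 as lower, where all genes tested had 9.96% and 10.4%, and none of the members.

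**Figure D4:**
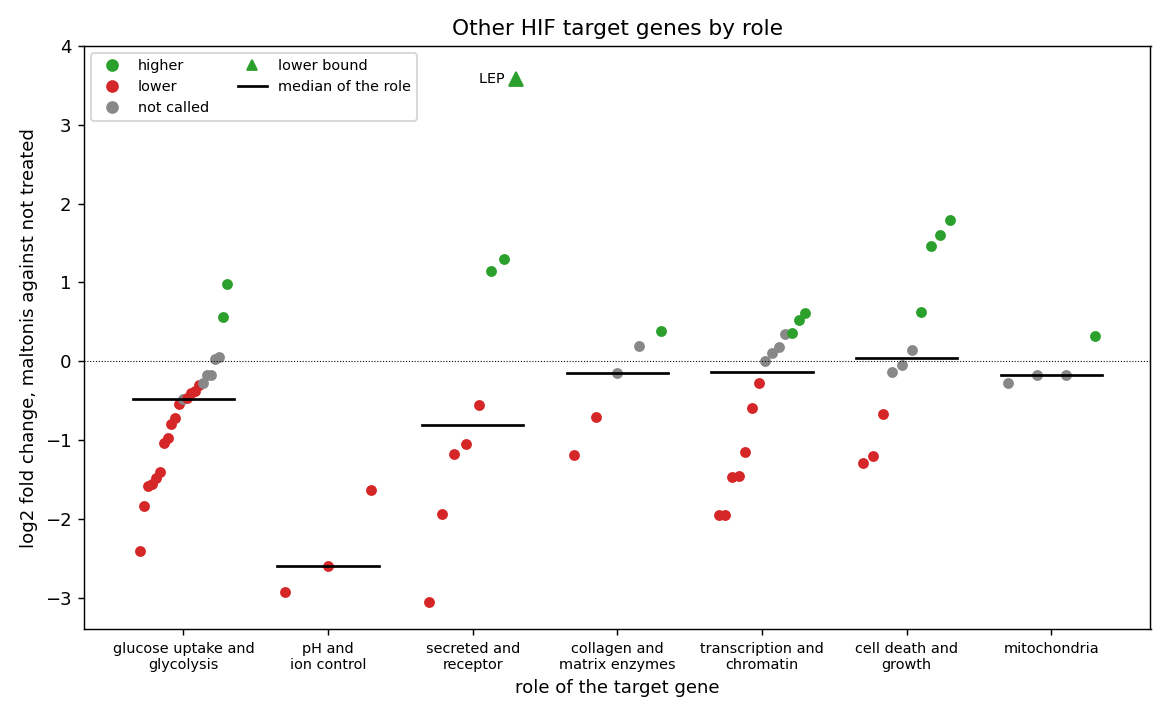
Log2 fold changes (y axis) of the 67 tested HIF targets other than the members, as points grouped by role, with the median of each role as a bar. Green points were called higher, red points lower and gray points were not called, and the triangle for LEP marks the lower bound of its rise. Red points make up 15 of 23 in glucose uptake and glycolysis and 3 of 3 in pH and ion control.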

How the data were processed

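Total RNA of 6 NB4 cultures was sequenced from stranded, ribosomal RNA-depleted libraries. For each library a table of raw HTSeq counts, reads per gene symbol without normalization, was deposited by the authors, and the submitters' processing notes name TopHat, Bowtie2, HTSeq and hg19. Versions, the annotation and the strand setting of counting are not given in the sources used here, so that antisense, overlapping and near-identical genes are uncertain.

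Counts were analyzed in R 4.3.3 with edgeR 4.0.16 (TMM scaling, filterByExpr, quasi-likelihood test, Benjamini-Hochberg adjustment over 13209 genes tested), on all 6 libraries without covariates, after a check on simulated counts. CPM used TMM-scaled library sizes, and a prior count of 2 was used for log2 CPM within the codes. RPKM used GENCODE v29 exon lengths, and promoter windows came from RefSeq (GRCh38.p14). Replicate libraries differed by a chi-square statistic per degree of freedom of 4.15 to 33.1, more than counting noise alone would give. This statistic cannot tell separate cultures from separate library preparations of the same culture. Each library was counted as its own sample because the study describes the replicates as biological. Alternatives were DESeq2 1.42.0, other scalings, filters and thresholds, the name code, the replicate number as a block, and each library left out.

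The members and gene lists were chosen with earlier results of these data known. The genes named are the members, the HIF machinery, in each role of the targets up to 2 called genes with the largest rise and 2 with the largest fall, 4 well-known targets, overlapping genes, and the 3 genes most like HIF1A and VEGFA.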

Additional observations from a re-analysis of the deposited data

How the results depend on the processing

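EGLN1, SLC2A1, BNIP3 and BNIP3L kept their direction and stayed past the threshold in all 16 tested alternatives. HIF1A stayed between -0.22 and -0.04 on the log2 scale over 17 alternatives and passed the threshold in none (edgeR or DESeq2, FDR = 0.0153 to 0.676). Leaving out each library in turn gave -0.22 to -0.10 for HIF1A, 1 member higher and 3 lower each time, and 11 to 14 HIF targets higher and 30 to 37 lower. Over all genes these fits called 3503 to 4336 higher and 3801 to 4457 lower, of 13294 to 13582 tested. The count of members called higher became 2, by the addition of ANKRD37, with scaling by total counts or by upper quartile, the likelihood ratio test, a filter at CPM 1 in 3 libraries, a term for the name code, or an FDR of 0.05. Over all genes, 4213 were called higher in the main fit. This became 4902 by total counts, 4722 by upper quartile, 4461 by the likelihood ratio test and 4731 with the name code. The filter at CPM 1 gave 4002 of 12095 tested. Requiring a fold change beyond about 2.5 left 0 members higher and 0 lower, and 4 targets higher and 15 lower. Without a call in any case, EP300 turned to -0.05 and CREBBP to -0.09 in replicates 2 and 3 alone, and leaving out 1 library gave -0.03 (maltonis replicate 2) to 0.09 for CUL2 and -0.05 (n.t. replicate 1) to 0.29 for CREBBP, with 0.00 without n.t. replicate 2. The causes were not tested. Over the longest transcript, n.t. levels were 26.9 RPKM for HIF1A, 5.77 for VEGFA, 5.53 for ADM, 37.9 for SLC2A1, 4.93 for PDK1, 27.2 for BNIP3, 22.7 for BNIP3L and 0.69 for ANKRD37, the lengths being shorter by construction. Same-numbered libraries are not stated to share a culture day, and the correlations of their deviations, 0.301, 0.0852 and 0.161, did not all exceed 0.1. With the replicate number as a block, HIF1A was at -0.16 (FDR = 0.032, edgeR). Under that block 1 member was higher and 3 lower, and 15 targets were higher and 37 lower. Of all 13209 genes tested, 4602 were then called higher and 4620 lower. EGLN2 (0.39, FDR = 0.00544) and TCEB1 (-0.32, FDR = 0.00407) gained a call and LOX (-1.18, FDR = 0.0129) lost it (edgeR). Depth limits EGLN3 and, with under 60 counts per library, ANKRD37 and EPAS1.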
